A study of Homo sapiens with 13 samples.

Results

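The 52 genes described here build the DNA replication machinery or take cells through the G1/S transition, the step from growth into DNA synthesis. They were taken by name, from a list drawn up with earlier results of these data known, and all 52 were found once in each of 3 count tables, out of 16998 genes that the tables share. The list holds the MCM2-7 helicase, origin licensing and firing factors, the sliding clamp and its loader, polymerases and primase, Okazaki fragment and base excision factors, enzymes of nucleotide supply, G1/S cyclins and their phosphatase, fork protection factors and factors that load histones or maintain methylation.

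Replication origins are licensed in G1 when the origin recognition complex, CDC6 and CDT1 load the MCM helicase. At the start of S phase, kinases of the cyclin E and DBF4 families switch the helicase on with the help of CDC45 and the GINS complex. Most of these genes are transcribed in late G1 by E2F factors, which pocket proteins of the RB family hold back until cyclin-dependent kinases phosphorylate them, and the CDK inhibitor p21, encoded by CDKN1A, keeps that switch off. In tumour cells such as those of lung adenocarcinoma, the level of these messages is therefore widely read as a measure of proliferation.

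All 13 libraries were polyA RNA-seq of A549, a human non-small cell lung cancer line, in 4 sets with 1 library for each culture. The first set holds CRISPRi_PRR11+SKA2 promoter-sgRNA#1, a stable line in which a guide to the shared promoter of PRR11 and SKA2 represses both genes, and CRISPRi_Mock sgRNA, which carries the CRISPRi system with a mock guide. The second holds stable lentiviral lines under a CMV promoter, LV-PRR11, LV-SKA2 and LV-P+S (both genes), with the empty LV-vector-PS; the third holds LV-miR301a, LV-miR454 and LV-3+4 (both microRNAs), made with the same vector system, with LV-vector-34. The fourth holds CRISPRd_miR301a-#2 and CRISPRd_miR454-#1, in which the precursor of miR-301a or of miR-454 was knocked out, with CRISPRd_Control. The label of the CRISPRi line names 1 guide. The labels do not say how many guides or vectors made the other lines, or how many clones any line holds. The microRNA and CRISPRd sets were deposited in 1 table.

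Levels are given as CPM, counts scaled to library size after normalization by trimmed mean of M-values (TMM) within a table, and are compared between libraries of 1 table only, never between genes, because they are not divided by gene length. A gene was measured in a pair when it reached 1 CPM in either library and 20 reads over both. It was called lower or higher when it differed at least 2-fold on the log2(CPM + 0.5) scale and the exact (Clopper-Pearson) 95% interval of its ratio excluded equality. With 1 library per culture there is no replicate check and no p-value for any pair, and the intervals cover counting error only. In bulk RNA, fewer cells in S phase and less of a message in each cell cannot be told apart.

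Library totals lay between 18672601 and 21811946 expected counts. PRR11 was at 0.643% of its mock level (interval 0.351 to 1.08%) and SKA2 at 0.292% (0.0947 to 0.683%) in CRISPRi_PRR11+SKA2 promoter-sgRNA#1. In LV-PRR11, PRR11 reached 109% of its level in LV-vector-PS (103 to 116%), and 110% (104 to 117%) with the LV-P+S label. SKA2 went against 2 labels: it stood at 84.4% of LV-vector-PS (77.9 to 91.4%) in the library labelled LV-SKA2, and at 88.7% (82.0 to 96.0%) under the LV-P+S label. The sources used here do not say whether reads of a transgene were counted. Mature microRNAs are too short for such libraries, and the microRNA labels were not checked here. KRT8 and KRT18, keratins of simple epithelium, and ALDH1A1, an aldehyde dehydrogenase abundant in A549, were at 3017 CPM or more in each library of the CRISPRi, LV-miR454 and CRISPRd pairs. EPCAM, an epithelial adhesion molecule, was at 2.22 to 8.28 CPM there, and KRT19, another keratin, had no read in CRISPRd_miR301a-#2.

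The regulatory sequences that bear on these genes are shown first for 5 members chosen because the results turn on them: MCM10 and CDC6, far below mock in CRISPRi_PRR11+SKA2 promoter-sgRNA#1, CCNE1 and PCNA, which differed less there, and UHRF1, called lower in CRISPRd_miR301a-#2. Each window runs from 250 bases before to 50 after the gene's start, in RefSeq on GRCh38.p14, 5′ to 3′ on the gene's strand. For a gene with several listed starts only the first window was used, as for UHRF1 with 3 and PCNA with 2. Capitals mark an E2F word, TTTCCCGC, TTTCGCGC, TTTGCCGC, TTTGGCGC, TTTCCCGG, TTTCGCGG, TTTGCCGG or TTTGGCGG, on either strand. The windows lie at chr10:13161308-13161607 (MCM10, plus strand), chr17:40287629-40287928 (CDC6, plus), chr19:4909251-4909550 (UHRF1, plus), chr20:5126573-5126872 (PCNA, minus) and chr19:29811741-29812040 (CCNE1, plus).
MCM10: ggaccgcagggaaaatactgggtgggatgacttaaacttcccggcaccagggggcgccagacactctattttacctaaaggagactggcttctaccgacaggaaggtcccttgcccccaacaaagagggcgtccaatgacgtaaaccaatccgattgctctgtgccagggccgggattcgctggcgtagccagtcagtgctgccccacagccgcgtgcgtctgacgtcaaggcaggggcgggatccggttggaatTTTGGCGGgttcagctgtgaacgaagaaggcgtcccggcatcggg
CDC6: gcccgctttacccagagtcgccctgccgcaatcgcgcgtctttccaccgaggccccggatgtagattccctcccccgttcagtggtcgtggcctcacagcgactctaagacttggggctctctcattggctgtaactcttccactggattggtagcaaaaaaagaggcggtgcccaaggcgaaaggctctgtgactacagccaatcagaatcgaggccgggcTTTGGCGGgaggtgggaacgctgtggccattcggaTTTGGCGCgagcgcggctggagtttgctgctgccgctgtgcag
UHRF1: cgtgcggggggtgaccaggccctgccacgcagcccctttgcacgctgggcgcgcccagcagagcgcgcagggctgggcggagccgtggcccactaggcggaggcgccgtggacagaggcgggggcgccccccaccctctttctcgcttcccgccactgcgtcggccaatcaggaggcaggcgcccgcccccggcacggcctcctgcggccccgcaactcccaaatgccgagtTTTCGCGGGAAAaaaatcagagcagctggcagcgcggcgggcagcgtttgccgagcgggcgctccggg
PCNA: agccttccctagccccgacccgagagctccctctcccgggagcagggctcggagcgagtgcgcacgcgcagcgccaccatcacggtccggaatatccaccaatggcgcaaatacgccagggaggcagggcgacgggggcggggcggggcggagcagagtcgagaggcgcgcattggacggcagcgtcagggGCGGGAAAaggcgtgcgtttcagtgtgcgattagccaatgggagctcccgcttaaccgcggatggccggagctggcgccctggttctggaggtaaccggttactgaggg
CCNE1: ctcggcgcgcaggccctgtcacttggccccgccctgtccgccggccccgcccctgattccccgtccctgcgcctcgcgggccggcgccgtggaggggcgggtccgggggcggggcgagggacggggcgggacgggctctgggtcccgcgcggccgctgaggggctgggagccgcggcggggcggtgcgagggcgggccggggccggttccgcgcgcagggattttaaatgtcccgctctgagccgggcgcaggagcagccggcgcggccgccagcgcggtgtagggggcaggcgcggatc

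MCM10 holds 1 such word, CDC6 2, UHRF1 2 that overlap on opposite strands, PCNA 1 on the strand opposite to the gene, and CCNE1 none in this window. The 5 lowest members in CRISPRi_PRR11+SKA2 promoter-sgRNA#1 also included ORC1, CDC45 and PRIM1, whose windows are not printed. CDC45 holds 1 such word there, while ORC1 and PRIM1 hold none. Windows were at hand for 46 of the 52 members. The 4 words ending in C stood in 21 of the 46 windows (45.7%), against 3.33% of 27305 promoters of all genes and 5.6% of 9028 promoters of genes at a mean of 5 CPM or more in the microRNA and CRISPRd libraries. With the last base C or G, a choice made after the printed windows were read, the counts were 24 of 46 (52.2%), against 6.2% and 10.4%. The CCAAT box (CCAAT, either strand) stood in 26 of the 46 (56.5%), against 35.7% and 36.7%. The CHR word TTTGAA, an element of genes of the later cell cycle, stood in 3 of the 46 (6.52%), against 15.4% and 9.15%. A match describes letters in a window and is not a site of binding.

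The mature microRNAs of the unit come from chr17:59137787-59137809 (miR-454-3p) and chr17:59151149-59151171 (miR-301a-3p), minus strand of GRCh38.p14. They are printed from RefSeq, 5′ to 3′, with bases 2 to 8, the seed, in capitals.
hsa-miR-454-3p: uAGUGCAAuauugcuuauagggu
hsa-miR-301a-3p: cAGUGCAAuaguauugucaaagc

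Both share the seed AGUGCAA, so a transcript with a match to one seed has a match to the other. A seed match of 7 or 8 letters (TTGCACT, TTGCACTA or TGCACTA) stood in the longest annotated 3′ UTR of 4 of 52 members (7.69%), against 20.5% of 10926 coding genes at a mean of 5 CPM or more in the same libraries. The members' median UTR was 968 bases long, against 1394 bases. The sites of POLA1, the catalytic subunit of polymerase alpha, and RPA2, a subunit of the single-strand binding complex, are printed with the seed match in capitals, from GRCh38 at chrX:24996482-24996506 (plus strand) and chr1:27891691-27891715 (minus). A further member, GINS4, had 2 matches.
POLA1: ttagaagccTTGCACTcactaaata
RPA2: ctttcagaaTTGCACTttcctgctt

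The other 48 members had no such match. The levels of POLA1, RPA2 and GINS4 are given with the microRNA libraries further on.

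Repression of the PRR11 and SKA2 promoter went with the largest difference of these genes among the 9 pairs of a line with its control. All 52 members were below mock in CRISPRi_PRR11+SKA2 promoter-sgRNA#1, and 45 of them were called lower, against 5.97% of the 15003 genes measured. None was called higher, against 9.43% of all genes. The median log2 ratio was -1.60 for the members and -0.04 for all genes, and the summed level of the 52 was 1608 CPM against 4580 CPM in mock. The interval lay below equality for all 52, against 38.7% of all genes.

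All 6 subunits of the MCM2-7 helicase, the ring that unwinds DNA at the fork, were called lower, with log2 ratios between -2.09 and -1.60. MCM2 was at 31.8 CPM against 137 CPM in mock, a level 4.30-fold lower (interval 3.96 to 4.68). MCM7 was at 98.7 CPM against 354 CPM in mock, and MCM3, the subunit that differed least, was at 50.7 CPM against 154 CPM. The summed level of the 6 was 341 CPM against 1209 CPM in mock.

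All 5 licensing factors were called lower as well. ORC1, an ATP-binding subunit of the origin recognition complex, was at 6.08 CPM against 33.0 CPM in mock, 5.43-fold lower (4.51 to 6.59). CDC6, which loads the helicase with ORC, was at 20.3 CPM against 96.5 CPM, 4.75-fold lower (4.29 to 5.28). CDT1, its partner in loading, had a log2 ratio of -1.91, and GMNN (geminin), which blocks CDT1 after licensing, had one of -1.38. ORC6 was nearest to the threshold, at 22.7 CPM against 47.3 CPM in mock.

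The largest difference of all members was in MCM10, which helps to turn the loaded helicase into an active one. It was at 8.39 CPM against 63.1 CPM in mock, 7.53-fold lower (6.45 to 8.83). CDC45, which joins the helicase when origins fire, was at 7.48 CPM against 39.3 CPM. GINS1, GINS2 and GINS4, subunits of the complex that joins with CDC45, had log2 ratios between -1.89 and -1.44, while GINS3 was not called at 13.3 CPM against 21.8 CPM in mock (log2 ratio -0.69). CDC7 and DBF4, the kinase that fires origins and its activator, had log2 ratios of -1.69 and -1.59.

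PCNA, the sliding clamp of the polymerases, was below the threshold of size, at 212 CPM against 396 CPM in mock (log2 ratio -0.89). The 4 clamp loader subunits on the list, RFC2 to RFC5, were called lower, with log2 ratios between -1.90 and -1.22. All 7 polymerase and primase subunits were called lower. PRIM1, the catalytic primase, was at 6.39 CPM against 31.3 CPM in mock, and POLE2, a subunit of the leading-strand polymerase, at 3.31 CPM against 16.8 CPM. POLA1, POLA2, POLD1, POLD3 and POLE had log2 ratios between -1.66 and -1.53.

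Factors of Okazaki fragments and base excision differed less, with a median log2 ratio of -1.01. FEN1, the flap nuclease, and LIG1, which seals the fragments, were called lower (-1.29 and -1.08). RPA2 (-0.94) and UNG, which removes uracil from DNA (-0.93), stayed just short of 2-fold. Among the enzymes of nucleotide supply, RRM2, the regulated subunit of ribonucleotide reductase, was at 85.1 CPM against 283 CPM in mock. RRM1 (-1.2) and thymidine kinase TK1 (-1.29) were also called lower, while thymidylate synthase TYMS was not (-0.90).

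CCNE1, cyclin E1, had the smallest difference of all members. It was at 26.2 CPM against 37.4 CPM in mock, a level 1.43-fold lower (1.28 to 1.59). CCNE2, cyclin E2, was low in both libraries and called lower, at 3.26 CPM against 7.40 CPM. CDC25A, the phosphatase that activates the cyclin E kinase, stood apart from both at 4.72 CPM against 21.7 CPM.

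All 5 fork protection and checkpoint factors were called lower, between -2.05 for CLSPN (claspin, the mediator of checkpoint kinase activation) and -1.52 for TIPIN, the partner of TIMELESS. DTL, which directs CDT1 to degradation, had a log2 ratio of -2.04. UHRF1, which brings the maintenance methyltransferase to new DNA, was at 25.8 CPM against 95.1 CPM in mock. CHAF1A, CHAF1B and ASF1B, which deliver histones to new DNA, had log2 ratios between -1.85 and -1.51, and SLBP, which binds histone messages, one of -0.85. The 7 members short of the threshold were thus CCNE1, GINS3, SLBP, PCNA, TYMS, UNG and RPA2, and the nearest inside it were ORC6, CCNE2 and LIG1. The median log2 ratio was -1.78 for the 21 members whose window holds an E2F word ending in C and -1.57 for the 25 without one. The ranges overlapped, from -2.22 to -0.69 with a word and from -2.84 to -0.50 without one. Called lower were 18 of the 21 and 22 of the 25, against 5.97% of all genes. Words ending in C or G, the choice made after the windows were read, take in MCM10. With them the median was -1.84 for 24 members with a word and -1.52 for 22 without. Of these, 21 and 19 were called lower. The CCAAT box gave a like split of medians, with -1.79 for the 26 members that hold it and -1.53 for the 20 that do not. Called lower were 24 and 16 of them.

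The median log2 ratio of 63 other genes of replication and S phase was -0.98. Of the 63, 28 were called lower and none higher, against 5.97% and 9.43% of all genes. They included TICRR, an origin firing factor, at 7.21 CPM against 34.4 CPM in mock, and TOP2A, a topoisomerase, at 128 CPM against 522 CPM. The origin recognition subunits ORC3, ORC4 and ORC5, with log2 ratios of -0.46, -0.14 and -0.37, and RRM2B, a ribonucleotide reductase subunit under p53 control, at 111 CPM against 56.1 CPM in mock, were not called. Of 30 mitotic genes, 29 were called lower, against 5.97% of all genes, with a median of -1.63. CDKN1A was at 708 CPM against 203 CPM in mock (log2 ratio 1.80), and the proliferation marker MKI67 at 79.4 CPM against 412 CPM. Fibroblast markers went the other way from the members: 6 of the 7 measured of 10 were called higher, against 9.43% of all genes. The 10 summed to 543 CPM against 107 CPM in mock. DCN had 1 read in each library, and COL1A2 2 reads against none in mock. Mitochondrial messages summed to 65386 CPM against 61285 CPM in mock. The part of these markers in the members' levels was not tested.

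Knockout of either microRNA precursor went with slightly lower levels of nearly all members. In CRISPRd_miR301a-#2, 50 of 52 members were below CRISPRd_Control, where 51.2% of all genes were, and the interval lay below equality for 44, against 32.2% of all genes. In CRISPRd_miR454-#1, 50 of 52 were below the same control, where 51.5% of all genes were, and the interval lay below equality for 49, against 31.6%. The median log2 ratios were -0.43 and -0.49, with -0.01 for all genes in both. Both pairs share CRISPRd_Control, so they are not independent of each other.

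By the rule of size, 1 member was called lower and none higher in CRISPRd_miR301a-#2, against 4.15% and 6.73% of 15050 genes. In CRISPRd_miR454-#1 none was called, against 3.1% lower and 6.62% higher of 14991 genes. The summed level of the 52 members was 3462 CPM in CRISPRd_miR301a-#2 and 3230 CPM in CRISPRd_miR454-#1, against 4369 CPM in CRISPRd_Control.

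The called member was UHRF1, at 35.7 CPM in CRISPRd_miR301a-#2 and 48.7 CPM in CRISPRd_miR454-#1, against 81.1 CPM in CRISPRd_Control. Its level in CRISPRd_miR301a-#2 was 2.27-fold lower (2.08 to 2.49). The other control of the table, LV-vector-34, had only 49.7 CPM of UHRF1, and against it the log2 ratio was -0.47 and not called.

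The helicase genes were below CRISPRd_Control in both knockouts, with medians of -0.56 in CRISPRd_miR301a-#2 and -0.58 in CRISPRd_miR454-#1. MCM5 was at 92.2 CPM in CRISPRd_miR301a-#2 and 79.8 CPM in CRISPRd_miR454-#1, against 160 CPM in CRISPRd_Control. The second of these was the lowest log2 ratio in its pair, -1.0, just short of a call. GINS3 was at 16.7 CPM and 13.1 CPM in CRISPRd_miR301a-#2 and CRISPRd_miR454-#1, against 25.6 CPM in CRISPRd_Control. POLE2 was at 14.7 CPM and 11.1 CPM in the same libraries, against 21.1 CPM.

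PCNA went the other way. It was at 437 CPM in CRISPRd_miR301a-#2 and 337 CPM in CRISPRd_miR454-#1, against 262 CPM in CRISPRd_Control and 247 CPM in LV-vector-34. These are 1.67-fold (1.61 to 1.73) and 1.29-fold (1.24 to 1.34) the level of CRISPRd_Control, neither large enough for a call. PCNA was the member with the highest log2 ratio in both pairs (0.74 and 0.36), and the only one whose interval lay above equality, where 30.4% and 30.5% of all genes did. LIG1 (0.06) in CRISPRd_miR301a-#2 and CHAF1B (0.02) in CRISPRd_miR454-#1 were the other members above the control, with intervals that held equality. A higher PCNA level was not limited to the knockouts. PCNA was at 327 CPM in LV-miR454, 228 CPM in LV-miR301a and 246 CPM in LV-3+4, against 247 CPM in LV-vector-34.

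**Figure D1:**
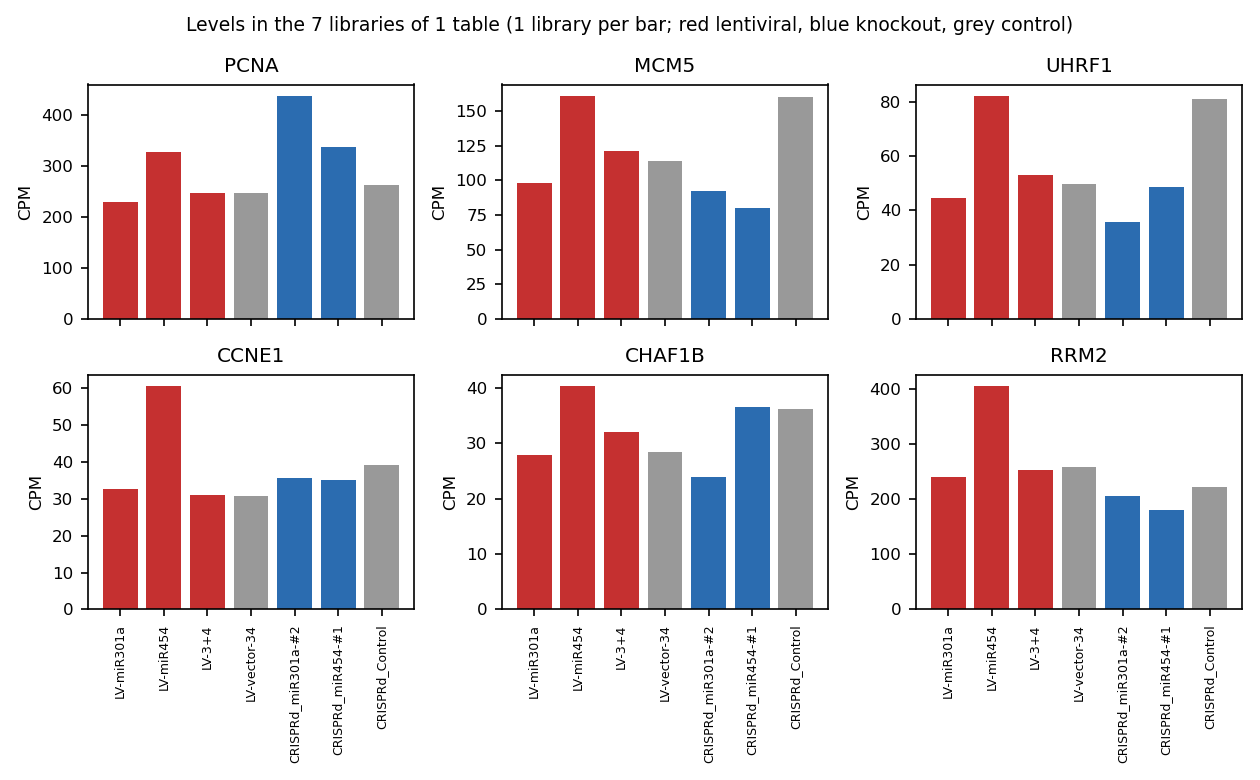
Levels in CPM of members the microRNA and CRISPRd results turn on, in the 7 libraries of their table, 1 library per culture. PCNA is highest in CRISPRd_miR301a-#2 at 437 CPM, and CCNE1 is highest in LV-miR454 at 60.5 CPM.

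Set directly against each other, the knockouts differed by a median log2 ratio of 0.09 (CRISPRd_miR301a-#2 over CRISPRd_miR454-#1), with no member called, against 3.65% lower and 2.76% higher of 14975 genes. CHAF1B, a subunit of the histone chaperone CAF-1, was lowest at 23.9 CPM in CRISPRd_miR301a-#2 against 36.6 CPM in CRISPRd_miR454-#1. CDC25A was highest together with RFC3, at 13 CPM in CRISPRd_miR301a-#2 against 9.45 CPM in CRISPRd_miR454-#1.

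The size of these differences depended on the control. Against LV-vector-34, 44 members were lower in CRISPRd_miR301a-#2 and 45 in CRISPRd_miR454-#1, with medians of -0.20 and -0.25, where 52% and 52.3% of all genes were lower. None was called in either, against 3.65% lower and 5.21% higher of 15030 genes and 3.37% lower and 5.89% higher of 15018 genes. CRISPRd_Control itself was above LV-vector-34 for 48 members, where 51.1% of all genes were, with a median of 0.22. None was called in that pair of controls, against 2.62% lower and 1.73% higher of 14828 genes. POLA1 was at 56.5 CPM in CRISPRd_Control against 32.1 CPM in LV-vector-34, and UHRF1 at 81.1 CPM against 49.7 CPM. RRM2, at 222 CPM in CRISPRd_Control against 259 CPM in LV-vector-34, was the lowest (log2 ratio -0.22).

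The 63 other replication and S phase genes had medians of -0.29 in CRISPRd_miR301a-#2 and -0.28 in CRISPRd_miR454-#1. Of all genes, 4.15% were called lower and 6.73% higher in CRISPRd_miR301a-#2, and 3.1% and 6.62% in CRISPRd_miR454-#1. Of the 63, 1 was called lower and none higher in each pair. The called gene was in both the CTP synthase CTPS1, at 113 CPM in CRISPRd_miR301a-#2 and 91.8 CPM in CRISPRd_miR454-#1, against 229 CPM in CRISPRd_Control. Of 30 mitotic genes, 20 in CRISPRd_miR301a-#2 and 27 in CRISPRd_miR454-#1 were below the control, none called, with medians of -0.16 and -0.40. CDKN1A was at 147 CPM and 226 CPM in CRISPRd_miR301a-#2 and CRISPRd_miR454-#1, against 128 CPM in CRISPRd_Control. Its level is given for the lentiviral pairs too, and its part in the members' levels was not tested. In LV-miR454, where most members were higher, CDKN1A was at 228 CPM against 163 CPM in LV-vector-34. It was at 191 CPM in LV-miR301a and 136 CPM in LV-3+4. In LV-PRR11, LV-SKA2 and LV-P+S it was at 218, 211 and 204 CPM, against 191 CPM in LV-vector-PS. Of the 8 immune markers, 3 were called higher in CRISPRd_miR301a-#2, against 6.73% of all genes, and 2 in CRISPRd_miR454-#1, against 6.62%. Their sums were 129 CPM and 160 CPM in these libraries, against 50 CPM in CRISPRd_Control, most of it CD68, while CD3E and TYROBP had no reads in the 3 libraries. Fibroblast markers summed to 35.0 CPM in CRISPRd_miR301a-#2 and 110 CPM in CRISPRd_miR454-#1, against 167 CPM in CRISPRd_Control. The part of these markers in the members' levels was not tested.

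**Figure D2:**
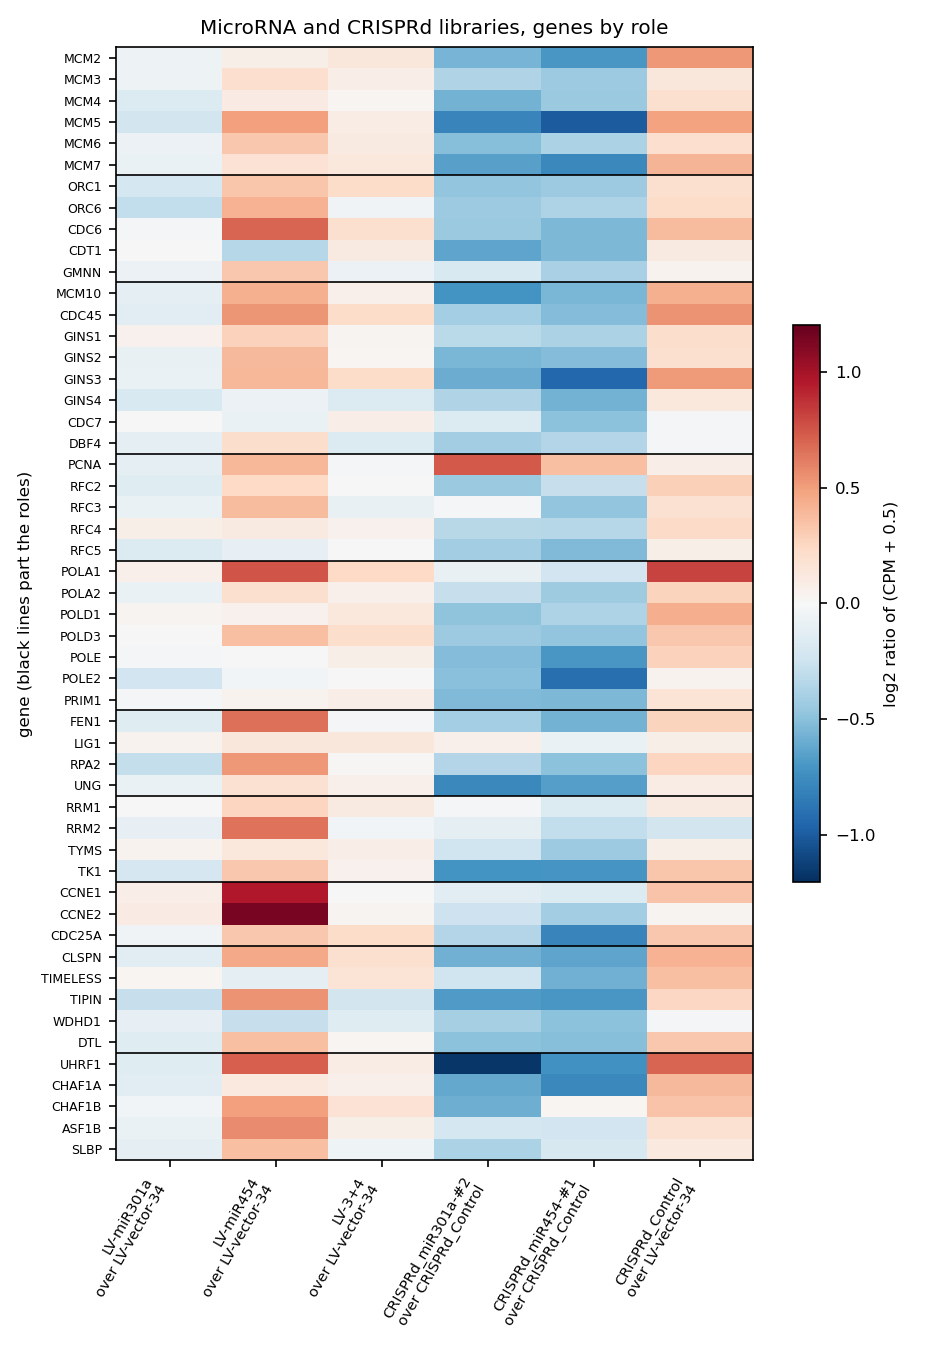
Log2 ratio of each member (rows, grouped by role) in 6 pairs of microRNA and CRISPRd libraries (columns), blue for lower and red for higher than the library named second, with 1 library per culture. The knockout columns over CRISPRd_Control are not above 0 but for PCNA in both, LIG1 in CRISPRd_miR301a-#2 and CHAF1B in CRISPRd_miR454-#1, and CCNE2 has the deepest red, at 1.14 in LV-miR454.

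In the lentiviral microRNA set, the members stood highest over the vector in LV-miR454. There, 45 of 52 were above LV-vector-34, where 49.7% of all genes were, and the interval lay above equality for 39, against 28.8% of all genes, and below it for 3, against 28.5%. The median log2 ratio was 0.32, and the summed level 4546 CPM against 3716 CPM in LV-vector-34. By the rule of size, 1 member was called higher and none lower, against 2.98% and 3.43% of 14890 genes.

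The called member was CCNE2, at 13.5 CPM in LV-miR454, 6.33 CPM in LV-miR301a and 6.01 CPM in LV-3+4, against 5.87 CPM in LV-vector-34. Its level in LV-miR454 was 2.31-fold that of LV-vector-34 (1.84 to 2.91). CCNE1 was at 60.5 CPM in LV-miR454, 32.6 CPM in LV-miR301a and 30.9 CPM in LV-3+4, against 30.8 CPM in LV-vector-34. Both cyclins E were thus high in LV-miR454 and near the vector in the other libraries, LV-3+4 among them, although it is labelled to carry both microRNAs.

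POLA1 followed at 54.4 CPM in LV-miR454 against 32.1 CPM in LV-vector-34, UHRF1 at 82.2 CPM against 49.7 CPM, and CDC6 at 81.8 CPM against 50 CPM. RRM2 was at 406 CPM in LV-miR454 against 259 CPM in LV-vector-34. The licensing factor CDT1 was lowest, at 70.5 CPM in LV-miR454 against 89.5 CPM in LV-vector-34, followed by WDHD1, a fork protein, at 38.4 CPM against 46.6 CPM, and TIMELESS at 92.4 CPM against 99.6 CPM. The role groups had medians between 0.05 for polymerases and primase and 0.96 for the cyclins and CDC25A.

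Of these, POLA1 and UHRF1 were as high in CRISPRd_Control, at 56.5 and 81.1 CPM. Against CRISPRd_Control in place of LV-vector-34, 22 members were below 0 in LV-miR454 and the median was 0.04, with 50.3% of all genes below 0, and 1 member was called higher and none lower, against 3.06% and 2.54% of 14847 genes. The fibroblast markers differed between LV-miR454 and LV-vector-34: 4 of the 5 measured were called higher and 1 lower, against 2.98% and 3.43% of all genes. Their sums were 310 CPM in LV-miR454 against 81.5 CPM in LV-vector-34, while DCN had 1 read against 4. The part of these markers in the members' levels was not tested.

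In LV-miR301a, 41 of 52 members were below LV-vector-34, where 49.8% of all genes were, with a median of -0.08 and the interval below equality for 18, against 13% of all genes. In LV-3+4, 14 were below it, where 48.6% of all genes were, with a median of 0.06. Against CRISPRd_Control in place of LV-vector-34, that direction turned: 44 members were lower in LV-3+4, where 51% of all genes were, with a median of -0.18. In LV-miR301a, 49 were below CRISPRd_Control, where 51.6% of all genes were, with a median of -0.31. None was called in LV-miR301a, against 0.373% lower and 0.359% higher of 14758 genes, nor in LV-3+4, against 0.361% and 0.279% of 14694 genes. ORC6 was lowest in LV-miR301a, at 21.7 CPM against 26.8 CPM in LV-vector-34. TIPIN was lowest in LV-3+4, at 16.1 CPM against 18.8 CPM in LV-vector-34.

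POLA1, RPA2 and GINS4, 3 of the 4 members with a seed match, did not share a direction in the lentiviral microRNA libraries. RPA2 was at 20.7 CPM in LV-miR301a, 36.4 CPM in LV-miR454 and 25.4 CPM in LV-3+4, against 25.3 CPM in LV-vector-34. GINS4 was at 38.6, 41.6 and 39.2 CPM in these libraries, against 43.8 CPM in LV-vector-34. POLA1 was above LV-vector-34 in all 3, at 33.4, 54.4 and 38 CPM. In CRISPRd_miR301a-#2 and CRISPRd_miR454-#1, all 3 genes were below CRISPRd_Control, as nearly all members were. POLA1 was at 52.9 and 47.9 CPM against 56.5 CPM, and RPA2 at 23.8 and 21.5 CPM against 30.4 CPM. GINS4 was at 37.4 and 32.2 CPM against 48.1 CPM. Against LV-vector-34, POLA1 was higher in these knockouts (log2 ratios 0.71 and 0.57), while RPA2 (-0.09 and -0.23) and GINS4 (-0.22 and -0.44) were lower.

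The 4 lentiviral microRNA libraries allow a fit with both labels as terms and no interaction, which leaves 1 residual degree of freedom. Its p-values weigh a label against the departure of single libraries from additivity, so the absence of a call does not show an absence of difference. Each coefficient rests on all 4 libraries. The members' median log2 ratio over LV-vector-34 was -0.08 in LV-miR301a, 0.32 in LV-miR454 and 0.06 in LV-3+4. In edgeR's quasi-likelihood test over 14615 genes, no gene passed an adjusted p of 0.05 for the miR301a or the miR454 label (0% for both), with 525 and 318 genes at an unadjusted p under 0.05. DESeq2 called 2 genes and 1 gene. No member was called by either tool. The lowest adjusted p of a member was 0.84 for the miR301a label, with 42 members below 0, where 50.3% of all genes were, and a median of -0.16, and 0.93 for the miR454 label, with 4 below 0, where 50.5% of all genes were, and a median of 0.21.

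In the PRR11 and SKA2 set the members hardly moved. None was called in LV-PRR11, against 0.12% lower and 0.179% higher of 13379 genes. None was called in the library labelled LV-SKA2 (0.112% and 0.141% of 13447 genes) or in that labelled LV-P+S (0.127% and 0.134% of 13408 genes). In LV-PRR11, 25 members were below LV-vector-PS, where 50.2% of all genes were, with a median of 0.00, and the log2 ratios ran from -0.20 for MCM2 to 0.19 for POLD3. In the library labelled LV-SKA2, 39 members were below LV-vector-PS, where 50.6% of all genes were, and the median was -0.06. In the library labelled LV-P+S, 46 members were below it, where 51.1% of all genes were, and the median was -0.09.

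MCM10 showed the lowest log2 ratio in both libraries with an SKA2 label. It was at 45.1 CPM in LV-PRR11, 38.7 CPM in the library labelled LV-SKA2 and 38.3 CPM in the library labelled LV-P+S, against 46.2 CPM in LV-vector-PS. RRM2 was at 166, 144 and 142 CPM in these libraries, against 156 CPM in LV-vector-PS. CDC6 was at 70.1, 56.5 and 60.2 CPM, against 63.4 CPM. For all 3 genes, the libraries labelled with SKA2 lay below those without that label.

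The same additive fit over these 4 libraries and 13311 genes called 6 members for the SKA2 label at an adjusted p under 0.05, all lower, against 2.49% of all genes lower and 3.37% higher. MCM10 had a log2 coefficient of -0.25 ± 0.06 (SE; adjusted p = 0.0025, edgeR) and RRM2 one of -0.17 ± 0.04 (adjusted p = 0.0022, edgeR). CDC6 (-0.19), CCNE1 (-0.22), POLA1 (-0.18) and MCM6 (-0.13) had adjusted p-values between 0.0089 and 0.033 in edgeR. In all, 47 of 52 members were below 0 for this label, against 6725 of 13311 genes (50.5%), with a median of -0.06. In edgeR, with 1 residual degree of freedom, the p-values rest largely on the spread borrowed from other genes. They and the SE weigh the label against the departure of single libraries from additivity, not against the spread between separately made lines. DESeq2 called none of the 6, with 45 genes called in all, 3 members given an adjusted p and 1 member at an unadjusted p under 0.05.

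**Figure D3:**
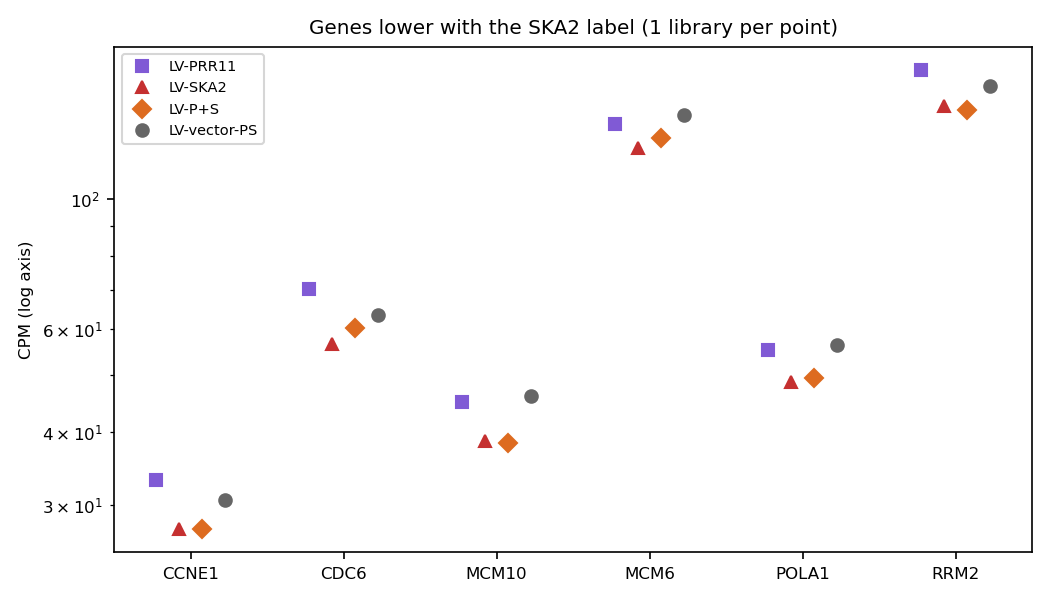
Levels in CPM of the 6 members called for the SKA2 label by edgeR, in the 4 libraries of the PRR11 and SKA2 set, 1 library per culture. For each gene the libraries labelled LV-SKA2 and LV-P+S lie below LV-PRR11 and LV-vector-PS.

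No member was called for the PRR11 label, against 0.834% of all genes lower and 0.308% higher, with 6 members at an unadjusted p under 0.05, a lowest adjusted p of 0.22 in edgeR and no member called by DESeq2. The counted level of SKA2 in the libraries with its label was below the vector, so the SKA2 coefficient is given for the label alone, and nothing is read from it about more SKA2 message. Mitotic genes moved with the members there: 28 of 30 were below LV-vector-PS in the library labelled LV-SKA2, with a median of -0.10, and 25 of 30 in the library labelled LV-P+S, with a median of -0.06.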

How the data were processed

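The authors deposited 3 tables of RSEM expected counts per gene, made with RSEM 1.3.3 and Bowtie2 2.3.5.1 on GRCh38.p13, per the submitters' processing notes. Neither the annotation nor whether reads were counted by strand is given in the sources used here. Expected counts were rounded, entries without a gene name (0.158 to 0.431% of each library) were dropped, and numbered copies of a symbol were summed, none of them a member. TMM factors (edgeR 4.0.16, R 4.3.3) lay between 0.9522 and 1.03. Log2 ratios used CPM + 0.5; exact intervals came from scipy 1.17.1. Additive fits used edgeR's quasi-likelihood test, with DESeq2 1.42.0 as an alternative, on genes at 1 CPM or more in 2 libraries, with Benjamini-Hochberg adjustment over all genes tested. The steps were tested on simulated data, which cannot show how far replicate cultures would differ. Members were named by the rule that the 5 highest and 5 lowest of each pair come first, with all 52 open to naming. Members and lists were chosen with earlier results of these data known. Promoter windows and mature microRNAs are from RefSeq, 3′ UTRs from GENCODE 29. Alternatives changed scaling, pseudocount, filter, threshold, tool and control library. Some items are not reported here.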

Additional observations from a re-analysis of the deposited data

How the results depend on the processing

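No paired analysis was possible because each culture has 1 library and the labels give no shared replicate numbers; for the same reason no library could be left out, since the additive fits would keep no residual degree of freedom. The median of the members turned in LV-3+4, to -0.18 against CRISPRd_Control; no other median and no called member changed direction under the alternatives run. The CRISPRi count of 45 called members stayed within 1.5 times under each. At a 1.5-fold threshold in place of 2-fold, 7 members were called in LV-miR454, all higher, against 8.16% of all genes. At that threshold 12 were called in CRISPRd_miR301a-#2, 11 of them lower, against 10.9%, and 13 in CRISPRd_miR454-#1, all lower, against 9.21%. It called 1 between the knockouts, lower, against 8.26%, and 2 between the controls, higher, against 5.62%. With total counts, 3 members were called in CRISPRd_miR454-#1, all lower, against 3.98%, and 1 was below LV-vector-34 in CRISPRd_Control; that scaling moved the median of all genes in CRISPRd_miR454-#1 to -0.12. With the other control library, 22 members were below it in LV-miR454 and 44 in LV-3+4, and 0 were called in CRISPRd_miR301a-#2. DESeq2 called 0 genes for the PRR11 label, 45 genes and 0 members for the SKA2 label, 2 genes for the miR301a label and 1 for the miR454 label; edgeR with DESeq2 size factors called 1 gene for the miR454 label. The cause was not tested. For genes of few counts, such as CCNE2, depth limits what the intervals can resolve.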

Other observations

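The E2F factors and pocket proteins, which control most of the genes above, differed unevenly in CRISPRi_PRR11+SKA2 promoter-sgRNA#1. Of 12, 4 were called lower, against 5.97% of all genes. They were E2F2, E2F8, E2F1 and the pocket protein RBL1. E2F2 was at 1.72 CPM against 17.6 CPM in mock, and E2F8 at 1.81 CPM against 14.3 CPM. E2F1 was at 15.8 CPM against 66.0 CPM, and RBL1 at 9.48 CPM against 31.3 CPM. E2F4 was at 68.2 CPM against 74.0 CPM in mock and RBL2 at 30.4 CPM against 31.2 CPM, the factor and pocket protein known for repression in resting cells. Of the 7 CDK inhibitors, 5 were measured, and CDKN1A was the 1 called higher, against 9.43% of all genes.

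In both microRNA knockouts the CDK inhibitor called higher was another. Of all genes, 6.73% were called higher in CRISPRd_miR301a-#2 and 6.62% in CRISPRd_miR454-#1. CDKN1B, which encodes p27, an inhibitor of the cyclin E kinase, was at 135 CPM in CRISPRd_miR301a-#2 and 109 CPM in CRISPRd_miR454-#1, against 36.1 CPM in CRISPRd_Control (log2 ratios 1.89 and 1.58). Against LV-vector-34, at 55.2 CPM, the log2 ratios were 1.28, still called, and 0.97, not called. In the lentiviral lines CDKN1B was at 58.2 CPM in LV-miR301a, 39.4 CPM in LV-miR454 and 56.2 CPM in LV-3+4, against the same 55.2 CPM, and was not called in any of the 3. With 1 library per culture none of these differences has a replicate check.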
